A study of Mus musculus with 4 samples.

Results

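The antioxidant and FoxO stress genes described here are 38 genes chosen by name. They comprise FoxO transcription factors, superoxide dismutases, catalase, glutathione and thioredoxin enzymes, the Nrf2 pathway, sestrins and Ucp2. Each gene was read from probe sets whose only annotated symbol was that gene, and where several existed the brightest over the 4 arrays was used. In this way 35 of the 38 were measured, out of 19938 genes measured in all, while Prdx5, Prdx6 and Ucp2 had no listed probe set and are not analysed here. The RNA came from bone marrow of mice, from cells in the KLS gate (negative for lineage markers, positive for c-Kit and Sca-1), which is enriched for hematopoietic stem cells and early progenitors. Of the 4 arrays, 2 held Klf7-/- cells (knockout), which lack a Kruppel-like zinc finger factor, and 2 held Klf7+/+ cells (wild type). All came from the C57Bl/6 background, and fetal liver cells of both genotypes had been used to build chimeric mice with mixed marrow. The labels do not give the part of Klf7 that was deleted, the age of the mice, or how many mice and donor embryos stand behind an array, so the p-values reflect spread between samples that may be technical replicates.

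Cells that respire produce superoxide, which superoxide dismutases turn into hydrogen peroxide, and catalase, glutathione peroxidases and peroxiredoxins then remove the peroxide. Glutathione and thioredoxin supply electrons to the glutathione peroxidases and peroxiredoxins. The transcription factor Nrf2 (gene Nfe2l2), held low by Keap1, switches on many of these enzymes under oxidative stress. FoxO factors act in the nucleus when growth factor signalling is low and drive stress resistance genes, and in mice their loss raises reactive oxygen species in hematopoietic stem cells and depletes them.

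Klf7 itself read 6.59 and 6.18 (log2 intensity) in the knockout arrays, against 5.95 and 6.10 in the wild-type arrays, so no loss of its signal was seen in cells labelled Klf7-/-. A probe set outside the deleted part would check nothing, and groups are therefore named by their labels throughout. The X-inactivation RNA Xist (11.76 and 11.58 in knockout, against 5.24 and 4.80 in wild type) and 3 of 5 measured Y-linked genes (Eif2s3y, Uty and Kdm5d, all lower in knockout) divided the arrays as genotype did. Such transcripts mark female and male cells, so genotype and the sex of the cells cannot be told apart in any difference given here. The other Y-linked genes, Zfy1 and Usp9y, were dim and overlapped. Of the 35 genes measured, Foxo4 and Prdx4 lie on the X chromosome. Among 12 marker genes of stem and early progenitor cells, 10 were measured. Kit, named here because the sort used its product, read 10.12 and 9.92 in knockout, against 9.55 and 9.71 in wild type. The summed linear intensity of these 10 was 4970 and 4971 in knockout, against 4025 and 3605 in wild type. Of these 10, 6 were higher and 1 lower in knockout without overlap between the groups (70%, against 33.2% of all genes in either direction). Cd3e, a T cell receptor subunit gene that the lineage gate should remove, read 5.85 and 5.94 in knockout, against 5.98 and 6.01 in wild type, and without detection calls it is not known whether that signal lay above background. The 6 T and NK cell genes measured summed to 497.7 and 575.8 in knockout, against 425.3 and 598.5 in wild type. The 4 B cell genes measured summed to 518.8 and 134.5 in knockout, against 175.8 and 144.1 in wild type. Among them Vpreb1 read 8.59 and 5.49 in knockout, against 5.57 and 5.35 in wild type. Cd79b, also among them, did not stand out on knockout replicate 1 (6.46, against 6.45 on wild-type replicate 1). The part of such cells in the differences was not tested. In bulk samples such as these, fewer cells of a type and less RNA per cell cannot be told apart.

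No antioxidant or FoxO stress gene passed the threshold of an adjusted p under 0.05 in limma, fitted to all 28939 probe sets, of which 0.00346% passed. That share is 1 probe set, the one of Xist. Even Eif2s3y, 23.9-fold lower in knockout, did not pass (limma adjusted p = 0.648), so large differences could be missed. Adjusted p over the 35 genes ran from 0.945 to 1. At an unadjusted p under 0.05 there was 1 of 35, Keap1, where 4.81% of all genes lay. Differences, given throughout in log2 units as knockout minus wild type, were above 0 for 19 genes and below 0 for 16, and 45% of all genes lay above 0. Their median was 0.05, beside -0.03 over all genes. Single differences ran from -0.53 (Keap1) to 1.26 (Nfe2l2).

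Both knockout arrays lay above both wild-type arrays for 6 of the 35 genes, namely Nfe2l2, Gclc, Sod2, Sesn1, Prdx3 and Hmox1, where 14.5% of all genes did so. Both lay below for 3 genes, Keap1, Gpx4 and Foxo4, where 18.6% of all genes did so. The split depended on scaling: with cyclic loess or with quantile normalization applied again, 5 genes lay above and 6 below. Shares of all genes were counted only in the values as deposited. In either direction, the values as deposited give 25.7% of the 35 genes, and 33.2% of all genes. At least 1.5-fold apart without overlap were 2 of the 35, Nfe2l2 and Gclc, against 5.14% of all genes. This count was 1 with cyclic loess and 1 with quantile normalization applied again. Both differences stayed over 1.5-fold there (Gclc 0.64 and 0.62, Nfe2l2 1.24 and 1.27), and no other gene of the 35 reached 1.5-fold. Under each normalization, 1 of these 2 genes therefore overlapped. With 2 arrays a group, the smallest p a two-sided exact permutation test of a single value can give is 0.333.

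**Figure D1:**
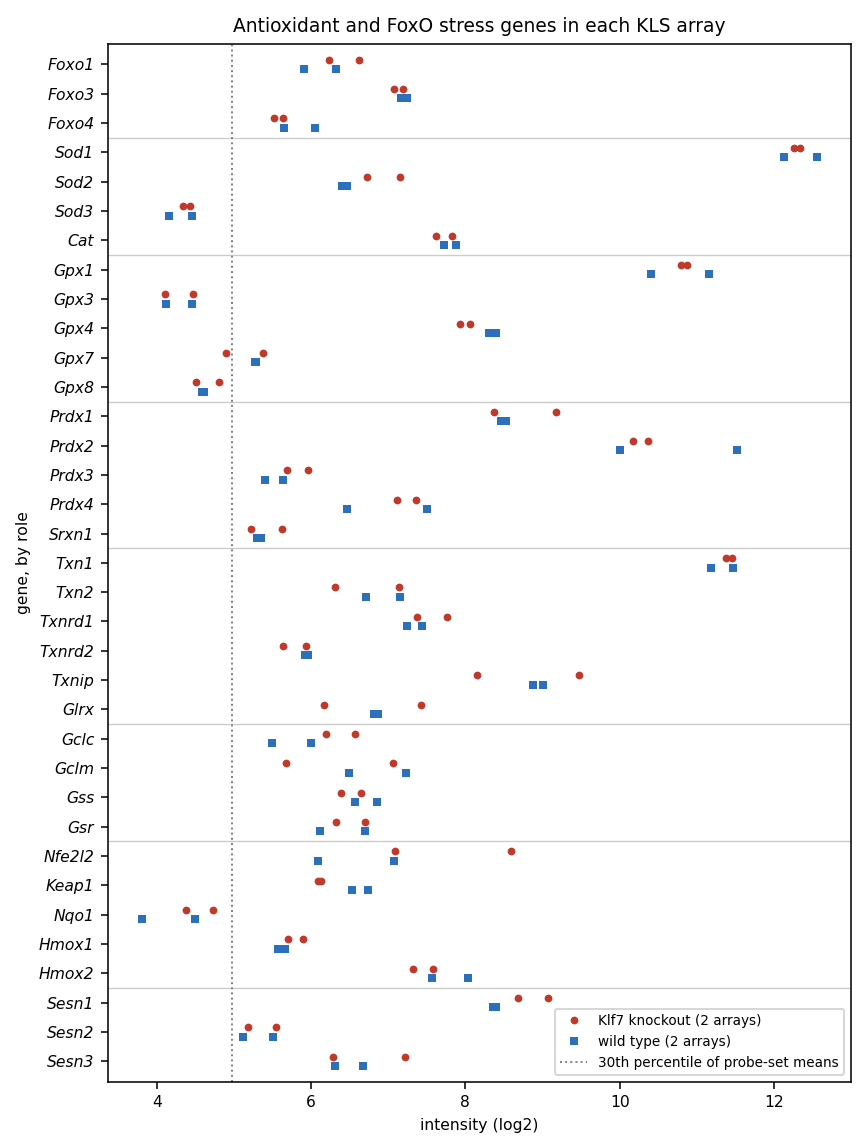
Log2 intensity (x axis) of each of the 35 measured genes (rows, grouped by role and separated by lines) on the 2 knockout arrays (circles, upper in each row) and the 2 wild-type arrays (squares, lower in each row). The dotted line marks the 30th percentile of probe-set means (4.97), and the groups overlap for 26 genes.

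**Figure D2:**
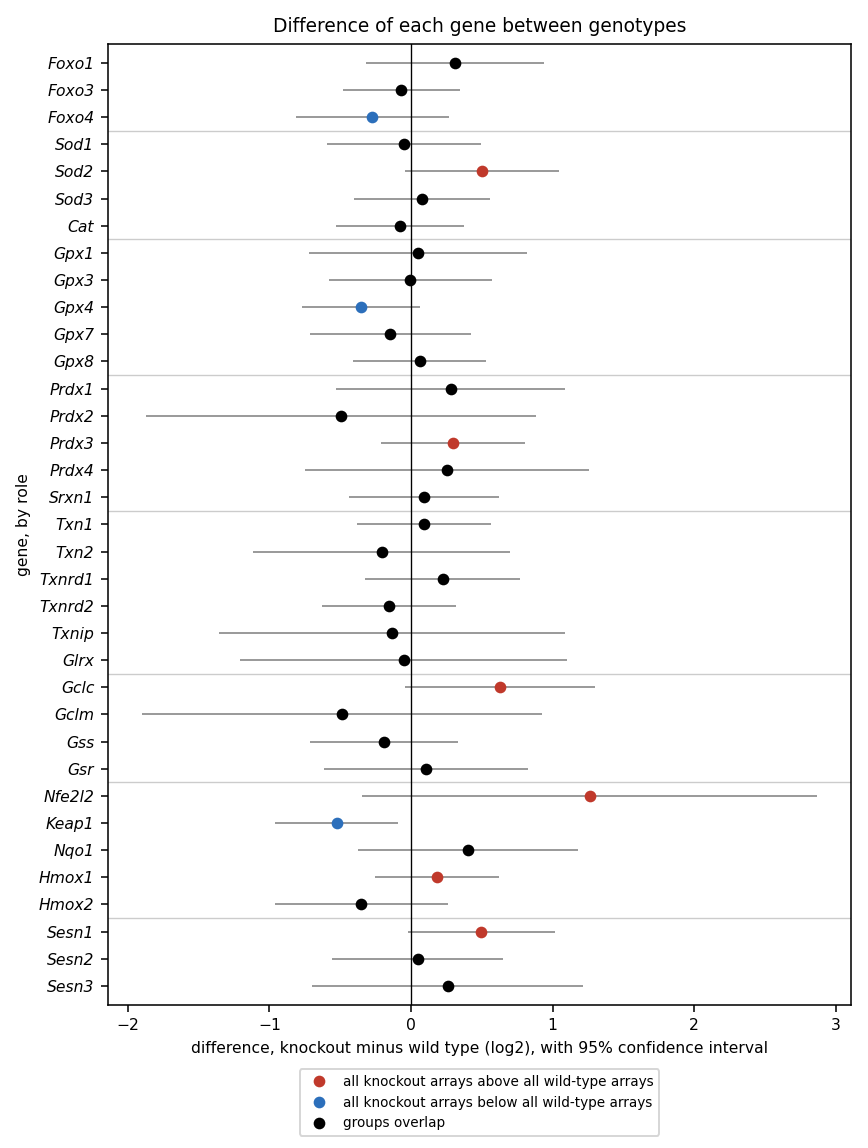
Difference of each gene, knockout minus wild type (log2, x axis), with limma's 95% confidence interval (bars) for the 35 genes (rows, by role). Red points have both knockout arrays above both wild-type arrays (6 genes), blue points both below (3 genes), and black points overlap. Every interval but that of Keap1 includes 0.

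**Figure D3:**
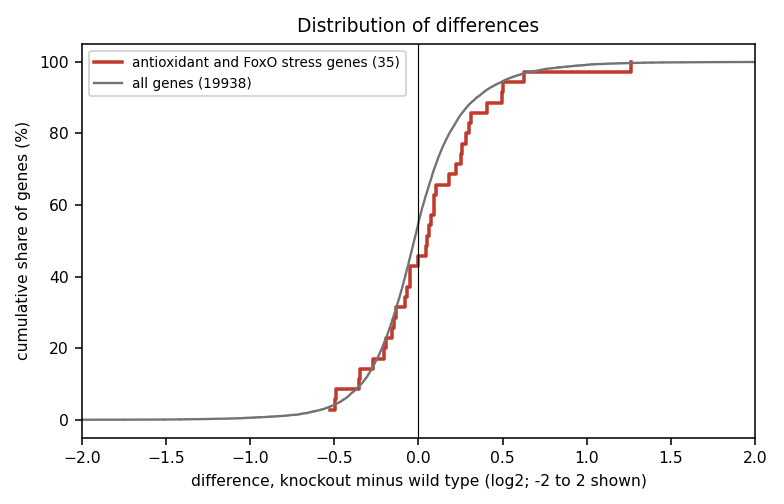
Cumulative share (y axis, %) of differences between knockout and wild type (x axis, log2) for the 35 antioxidant and FoxO stress genes (red) and for all 19938 genes (grey). The medians are 0.05 and -0.03.

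In the Nrf2 pathway, the factor and its inhibitor had differences of opposite sign, and neither passed the threshold. Nfe2l2, which encodes Nrf2, read 7.09 and 8.60 in the knockout arrays, against 7.08 and 6.09 in the wild-type arrays. The groups did not overlap, but knockout replicate 1 and wild-type replicate 1 were nearly equal, and the arrays within each group lay 1.51 apart in knockout, against 0.99 apart in wild type. Its difference was 1.26 ± 0.61 (SE, n = 2 per group, limma, 95% confidence interval -0.35 to 2.87), a 2.40-fold ratio that did not pass (adjusted p = 0.949). Leaving out knockout replicate 2 gave 0.51, leaving out wild-type replicate 2 gave 0.77, and leaving out knockout replicate 1 gave 2.01. Keap1, the adaptor that brings Nrf2 to a ubiquitin ligase for degradation, was steadier, at 6.12 and 6.09 in knockout, against 6.73 and 6.53 in wild type. All knockout readings lay below all wild-type readings, with a difference of -0.53 ± 0.16 (SE, n = 2 per group, limma adjusted p = 0.945) that stayed between -0.63 and -0.43 with any 1 array left out. Its unadjusted limma p of 0.0270 was the smallest of the 35 genes. Cul3, the ubiquitin ligase scaffold that Keap1 binds, was chosen after its values were seen. It read 10.50 and 10.81 in knockout, against 10.10 and 10.39 in wild type, a difference of 0.41 ± 0.20 without overlap.

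Nqo1 and Hmox1 are classical Nrf2 target genes. Nqo1, a quinone reductase, read 4.38 and 4.73 in knockout, against 4.50 and 3.80 in wild type, all under 4.97, the 30th percentile of probe-set means, and the groups overlapped. Its difference of 0.41 was 0.059 without wild-type replicate 2 and 0.75 without wild-type replicate 1. Hmox1, the inducible heme oxygenase, read 5.90 and 5.70 in knockout, against 5.66 and 5.57 in wild type, apart by 0.18 ± 0.17 without overlap, or by 0.086 without knockout replicate 1. Hmox2, the constitutive heme oxygenase, read 7.32 and 7.58 in knockout, against 8.03 and 7.56 in wild type, where the difference of -0.35 came mostly from wild-type replicate 1. Without that array it was -0.12.

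Gclc and Gclm encode the subunits of glutamate-cysteine ligase, the first enzyme of glutathione synthesis. Gclc, the catalytic subunit, read 6.57 and 6.19 in knockout, against 6.00 and 5.50 in wild type. Both knockout arrays lay above both wild-type arrays, and the difference was 0.63 ± 0.25 (SE, n = 2 per group, limma adjusted p = 0.945), between 0.38 (without wild-type replicate 2) and 0.88 with any 1 array left out. Gclm, the modifier subunit, read 5.68 and 7.07 in knockout, against 6.49 and 7.23 in wild type. Here knockout replicate 1 was the lowest array, the groups overlapped, and the difference of -0.49 ± 0.54 became 0.21 without that array. Gss, which completes glutathione, read 6.65 and 6.38 in knockout, against 6.85 and 6.56 in wild type, and its difference of -0.19 ranged from -0.33 to -0.046 (without wild-type replicate 1) with 1 array left out. Gsr, which regenerates reduced glutathione, read 6.33 and 6.70 in knockout, against 6.11 and 6.70 in wild type, and both genes overlapped between groups.

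The 9-base core of the Nrf2 binding element, TGACNNNGC, was searched on both strands in RefSeq promoter windows (GRCm38.p6, 250 bases before to 50 after a transcription start). Such windows were found for 32 of the 38 genes, and 8 of the 32 (25%) held a match, against 14% of 27025 genes. The other 6, Foxo4, Sod3, Prdx6, Gclc, Gsr and Hmox1, had no window and were not searched for any motif. The 8 were Sod1, Prdx1, Srxn1, Txnrd1, Gclm, Nfe2l2, Sesn2 and Ucp2. A match describes letters and not a site, and promoters were not measured here. The AP-1 motif TGACTCA can overlap the core, and did so in Prdx1 only, while 9.38% of the 32 genes and 5.95% of all genes held it. The windows of Nfe2l2, Gclm, Prdx1, Srxn1 and Txnrd1 are shown because these genes span the Nrf2 factor itself and the enzymes of its glutathione, peroxiredoxin and thioredoxin branches. Capitals mark the core or its reverse complement.
Nfe2l2, chr2:75704614-75704913, minus strand: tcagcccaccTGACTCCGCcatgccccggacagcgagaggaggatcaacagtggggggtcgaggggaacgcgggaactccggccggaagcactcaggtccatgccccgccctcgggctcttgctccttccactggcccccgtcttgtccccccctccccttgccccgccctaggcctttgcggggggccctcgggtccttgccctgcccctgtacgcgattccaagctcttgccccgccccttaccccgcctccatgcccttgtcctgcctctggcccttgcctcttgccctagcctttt
Gclm, chr3:122245307-122245606, plus strand: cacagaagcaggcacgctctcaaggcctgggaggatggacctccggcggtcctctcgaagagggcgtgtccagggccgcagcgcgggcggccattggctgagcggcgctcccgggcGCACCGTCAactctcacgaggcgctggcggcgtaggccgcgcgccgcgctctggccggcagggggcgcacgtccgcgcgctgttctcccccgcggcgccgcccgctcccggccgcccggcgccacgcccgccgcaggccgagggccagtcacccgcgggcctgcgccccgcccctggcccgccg
Prdx1, chr4:116685349-116685648, plus strand: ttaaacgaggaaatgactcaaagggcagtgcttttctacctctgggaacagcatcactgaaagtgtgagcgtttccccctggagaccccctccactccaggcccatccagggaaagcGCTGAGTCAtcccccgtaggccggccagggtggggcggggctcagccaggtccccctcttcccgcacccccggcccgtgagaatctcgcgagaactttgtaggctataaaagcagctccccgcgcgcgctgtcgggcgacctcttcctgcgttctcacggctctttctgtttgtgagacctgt
Srxn1, chr2:152105274-152105573, plus strand: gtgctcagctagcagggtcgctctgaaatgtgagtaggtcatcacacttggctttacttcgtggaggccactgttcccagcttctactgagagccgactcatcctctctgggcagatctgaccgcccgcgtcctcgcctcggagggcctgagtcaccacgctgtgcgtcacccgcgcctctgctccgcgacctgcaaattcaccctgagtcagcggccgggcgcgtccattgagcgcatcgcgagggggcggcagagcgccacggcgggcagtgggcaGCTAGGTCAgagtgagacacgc
Txnrd1, chr10:82858956-82859255, plus strand: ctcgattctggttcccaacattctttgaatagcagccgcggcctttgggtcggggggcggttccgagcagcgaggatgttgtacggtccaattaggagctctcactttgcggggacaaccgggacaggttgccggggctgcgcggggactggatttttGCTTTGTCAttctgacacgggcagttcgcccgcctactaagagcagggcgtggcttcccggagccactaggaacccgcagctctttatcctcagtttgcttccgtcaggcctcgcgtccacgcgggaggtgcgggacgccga
The match began 240 bases before the start in Nfe2l2, 134 before in Gclm, 133 before in Prdx1 and 92 before in Txnrd1, and at base 29 after the start in Srxn1. Of the 7 measured genes with a match, only Nfe2l2 was without overlap between the groups in the values as deposited, where 33.2% of all genes were. Gclc, Hmox1 and Foxo4, also without overlap, were among the genes not searched. The differences of the others were 0.28 for Prdx1, 0.22 for Txnrd1, 0.09 for Srxn1, 0.05 for Sesn2, -0.05 for Sod1 and -0.49 for Gclm. The Kruppel-like factor motif CCNCNCCC was in the windows of 28 of the 32 genes (87.5%) and of 51.9% of all genes. Base composition differs between promoters and was not matched.

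**Figure D4:**
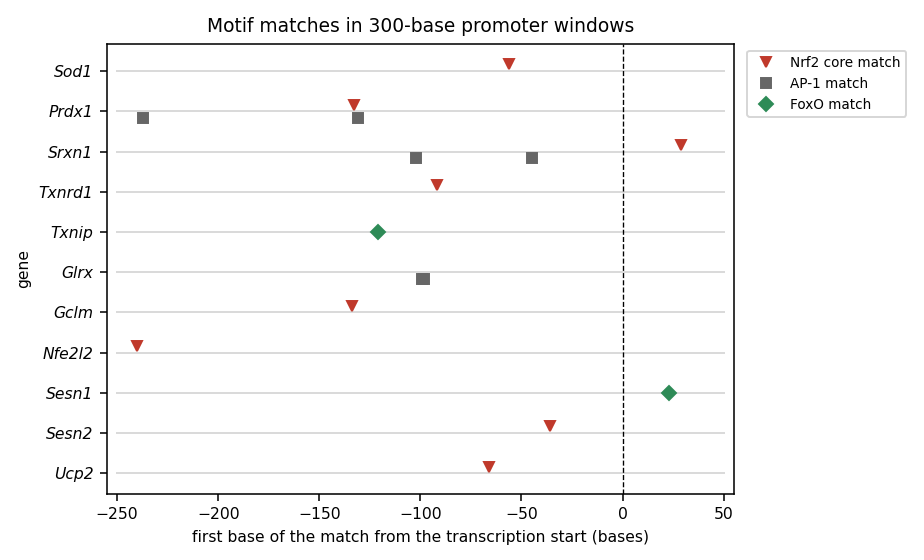
Position of the first base of each match (x axis, bases from the transcription start, dashed line) to the Nrf2 core, AP-1 and FoxO motifs in the promoter windows of the genes holding any of them (rows). A gene with several windows has the matches of all of them on 1 row, and Prdx1 has an Nrf2 core and an AP-1 match at nearly the same place.

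The FoxO genes showed small differences. Foxo1 read 6.24 and 6.62 in knockout, against 6.33 and 5.91 in wild type, and Foxo3, the member most tied to stem cell maintenance in mice, read 7.08 and 7.19 in knockout, against 7.24 and 7.17 in wild type. Both overlapped between the groups, with differences of 0.31 ± 0.24 and -0.07 ± 0.16 (SE, n = 2 per group). With 1 array left out, Foxo1 ranged from 0.10 (without wild-type replicate 2) to 0.52, and Foxo3 from -0.13 to -0.01 (without knockout replicate 1). The 95% confidence interval for Foxo3 ran from -0.48 to 0.35. The X-linked Foxo4 read 5.52 and 5.64 in knockout, against 5.65 and 6.05 in wild type, without overlap but with knockout replicate 2 and wild-type replicate 1 only 0.0119 apart. Without wild-type replicate 2 its difference of -0.27 was -0.070, and without wild-type replicate 1 it was -0.48.

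Sestrins are stress-induced inhibitors of mTORC1 signalling that also help to regenerate peroxiredoxins. All 3 members had positive differences, where 45% of all genes did. Of the 3, 1 was without overlap (33.3%, against 33.2% of all genes). Sesn1, a p53 and FoxO target, read 9.07 and 8.68 in knockout, against 8.35 and 8.40 in wild type. Both knockout arrays were above both wild-type arrays, by 0.50 ± 0.20 (SE, n = 2 per group, limma adjusted p = 0.945), and by 0.30 without knockout replicate 1. Sesn2, induced by p53 and by endoplasmic reticulum stress, read 5.54 and 5.18 in knockout, against 5.51 and 5.12 in wild type, so its groups were nearly the same. Sesn3, a FoxO target, stood high on 1 array, with 7.22 and 6.28 in knockout, against 6.31 and 6.67 in wild type. Its difference of 0.26 was -0.21 without knockout replicate 1.

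The FoxO motif TGTTTAC, searched on both strands, was found in the windows of 2 of the 32 genes (6.25%), Txnip and Sesn1, and of 4.05% of all genes. Both are shown, with the motif or its reverse complement in capitals, since Sesn1 was without overlap and Txnip had 1 of the wider spreads within knockout.
Txnip, chr3:96557707-96558006, plus strand: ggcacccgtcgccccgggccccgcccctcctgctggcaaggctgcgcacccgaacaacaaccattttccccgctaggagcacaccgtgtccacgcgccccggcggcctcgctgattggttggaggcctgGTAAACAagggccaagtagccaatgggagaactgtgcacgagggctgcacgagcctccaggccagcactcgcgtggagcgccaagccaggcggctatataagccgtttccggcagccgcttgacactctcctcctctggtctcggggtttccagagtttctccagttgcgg
Sesn1, chr10:41810324-41810623, plus strand: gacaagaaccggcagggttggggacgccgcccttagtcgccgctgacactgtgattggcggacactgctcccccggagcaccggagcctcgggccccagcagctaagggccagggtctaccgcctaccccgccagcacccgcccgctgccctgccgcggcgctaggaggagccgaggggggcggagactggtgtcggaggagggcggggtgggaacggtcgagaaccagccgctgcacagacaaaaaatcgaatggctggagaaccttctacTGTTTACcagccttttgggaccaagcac
The match began 121 bases before the start in Txnip and at base 23 after the start in Sesn1, in 1 of the 2 Sesn1 windows. Txnip, which binds and inhibits thioredoxin and limits glucose uptake, read 9.47 and 8.15 in knockout, against 9.003 and 8.88 in wild type. The 2 knockout arrays flanked both wild-type arrays, and the difference was -0.13 ± 0.46 (SE, n = 2 per group).

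Of the 4 superoxide dismutase and catalase genes, only Sod2 was without overlap (25%, against 33.2% of all genes). Sod2, the mitochondrial manganese enzyme, read 7.15 and 6.72 in knockout, against 6.47 and 6.40 in wild type. It was without overlap, at 0.50 ± 0.21 (SE, n = 2 per group, limma adjusted p = 0.945), and stood at 0.29 without knockout replicate 1. Sod1, the cytosolic copper-zinc enzyme, read 12.26 and 12.33 in knockout, against 12.56 and 12.13 in wild type, and its difference of -0.05 ± 0.21 had a 95% confidence interval of -0.60 to 0.49. Sod3, the extracellular enzyme, lay between 4.16 and 4.46 on all 4 arrays, under the 30th percentile of probe-set means. Cat, the peroxisomal catalase, read 7.82 and 7.62 in knockout, against 7.72 and 7.88 in wild type, with overlap.

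Of the 5 glutathione peroxidases, Gpx4 was the member without overlap (20%, against 33.2% of all genes). This selenoenzyme, which reduces lipid peroxides in membranes and protects from ferroptosis, read 8.06 and 7.93 in knockout, against 8.39 and 8.30 in wild type. Its difference was -0.35 ± 0.16 (SE, n = 2 per group, limma adjusted p = 0.945), and stayed between -0.41 and -0.29 with any 1 array left out. A second Gpx4 probe set read 7.87 and 7.76 in knockout, against 8.28 and 8.13 in wild type, apart by -0.39 ± 0.16 and also without overlap. Its ID is nearer to that of Sesn1, a gene of the same chromosome, than to that of the first Gpx4 probe set. Whether it reads Gpx4 or another sequence was not tested. Gpx1, the abundant cytosolic enzyme, was even within knockout (10.87 and 10.79) and uneven within wild type (11.16 and 10.40), with a difference of 0.05 ± 0.29. Gpx3, which is secreted into plasma, and Gpx7 and Gpx8, which act in the endoplasmic reticulum, overlapped between groups, with differences of -0.00433, -0.15 and 0.06. Gpx3 and Gpx8 lay under the 30th percentile of probe-set means.

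Among peroxiredoxins, Prdx3, the mitochondrial member, read 5.68 and 5.95 in knockout, against 5.40 and 5.64 in wild type. The groups were separated by 0.04 (log2) between knockout replicate 1 and wild-type replicate 2, and the difference was 0.30 ± 0.19 (SE, n = 2 per group), or 0.16 without knockout replicate 2 and 0.18 without wild-type replicate 1. Prdx1, a cytosolic member, read 8.36 and 9.18 in knockout, against 8.52 and 8.46 in wild type. Its high reading in knockout replicate 2 set the difference of 0.28, which was -0.13 without that array. A second Prdx1 probe set gave 0.56 ± 0.22 without overlap (8.36 and 8.66 in knockout, 8.14 and 7.76 in wild type), but the 10 nearest named probe-set IDs belonged to chromosome 16, whereas Prdx1 is on chromosome 4. Prdx2, a cytosolic member abundant in red cells, read 10.17 and 10.37 in knockout, against 10.01 and 11.52 in wild type. The single high array was wild-type replicate 2, without which the difference of -0.49 ± 0.52 was 0.26. The 7 erythroid genes measured had summed intensities of 1274 and 1023 in knockout, against 919.5 and 1062 in wild type. Their part in the Prdx2 reading was not tested. This brightest Prdx2 probe set has neighbouring IDs of chromosome 1, while the gene is on chromosome 8, and the probe set with neighbouring IDs of chromosome 8 gave -0.05 ± 0.34. Whether the probe sets with neighbours of another chromosome read these genes or other sequences was not tested. Prdx4, the endoplasmic reticulum member and X-linked, read 7.36 and 7.11 in knockout, against 6.46 and 7.50 in wild type, and Srxn1, which repairs overoxidized peroxiredoxins, read 5.21 and 5.62 in knockout, against 5.30 and 5.35 in wild type. Both overlapped.

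None of the 6 thioredoxin and glutaredoxin genes, Txnip among them, was without overlap, where 33.2% of all genes were. Txn1, the cytosolic thioredoxin, read 11.38 and 11.45 in knockout, against 11.47 and 11.18 in wild type, a difference of 0.09 ± 0.18 (SE, n = 2 per group). Txnrd1, its reductase, read 7.37 and 7.76 in knockout, against 7.25 and 7.43 in wild type, and its knockout replicate 2 was the highest of the 4. Without that array its difference of 0.22 was 0.027. The mitochondrial pair, Txn2 and Txnrd2, differed by -0.21 ± 0.34 and -0.15 ± 0.18. Without knockout replicate 1 the difference of Txnrd2 was -0.00429, and without knockout replicate 2 it was -0.30. Glrx, the cytosolic glutaredoxin, read 6.17 and 7.42 in knockout, against 6.81 and 6.87 in wild type, so that the knockout arrays lay on either side of the wild-type arrays.

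Spread between replicate arrays was wide for several of these genes. The knockout arrays lay at least 2-fold apart for 4 of the 35 genes (Nfe2l2, Gclm, Txnip and Glrx), or 11.4%, against 3.52% of all genes. Of these, knockout replicate 2 was the higher for Nfe2l2, Gclm and Glrx and the lower for Txnip. The wild-type arrays lay as far apart for 2 of the 35 (Prdx2 and Prdx4), or 5.71%, against 4.56% of all genes. Prdx2 is counted by its brightest probe set, and its other one, with neighbouring IDs of chromosome 8, read 7.99 and 8.86 in wild type, under 2-fold apart. The median gap between the knockout arrays was 0.35 over the 35 genes and 0.21 over all genes, and between the wild-type arrays 0.29 and 0.23.

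**Figure D5:**
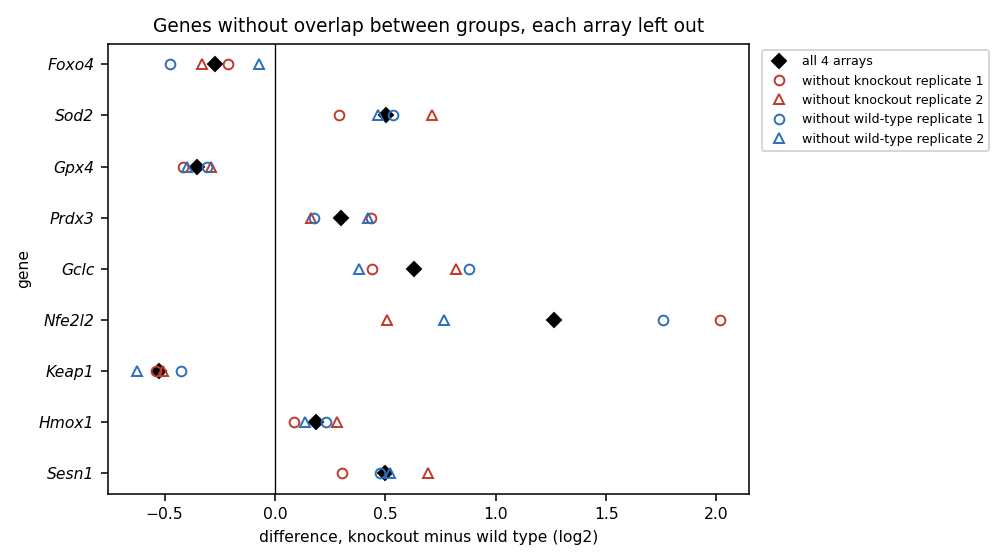
Differences between knockout and wild type (log2, x axis) for the 9 genes without overlap (rows), with all 4 arrays (diamonds) and with each array left out (open symbols, red where a knockout array and blue where a wild-type array was removed). Signs could not change for these 9, since genes without overlap keep their sign whichever array is left out. Nfe2l2 had the widest range, from 0.51 to 2.01.

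Other genes of the same pathways gave no probe set past the threshold. Of 17 measured FoxO regulators and cofactors, 6 were higher and 2 lower in knockout without overlap (47.1%, against 33.2% of all genes), with a median difference of 0.12. Sirt1, a deacetylase acting on FoxO proteins, differed by 0.65 ± 0.32 and the DNA damage kinase gene Atm by 0.54 ± 0.19, while the kinase gene Akt2, whose product keeps FoxO out of the nucleus, differed by -0.44 ± 0.19 (SE, n = 2 per group). Akt1 and Sgk1, kinase genes of the same role named after their values were seen, had the opposite sign, at 0.43 ± 0.24 and 0.38 ± 0.17, both without overlap. The Akt2 value comes from an ID lying where chromosome 10 genes give way to chromosome 11 genes, while Akt2 is on chromosome 7. A second Akt2 probe set, with neighbouring IDs of chromosome 7, gave -0.32. Whether the first reads Akt2 or another sequence was not tested. Atm read 7.65 and 7.48 in knockout, against 6.87 and 7.18 in wild type. For 21 FoxO target genes, 3 were higher and 6 lower without overlap (42.9%, against 33.2% of all genes) and the median was -0.00635. Insr, the insulin receptor gene that FoxO1 induces, read 7.99 and 8.43 in knockout, against 9.80 and 9.43 in wild type. Its difference of -1.41 ± 0.24, a 2.66-fold lower level in knockout, did not pass (limma adjusted p = 0.945), and a second Insr probe set gave 0.38. Bcl2l11 (the pro-apoptotic Bim) differed by -0.39 ± 0.18 and Bnip3, a mitophagy receptor, by 0.54 ± 0.41.

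Among 26 Nrf2 partners and target genes, 5 were higher and 4 lower without overlap, and the median was -0.00426. That share of 34.6% was near the 33.2% of all genes. Taldo1, an enzyme of the pentose phosphate pathway, read 7.77 and 6.82 in knockout, against 6.01 and 5.83 in wild type, a difference of 1.38 ± 0.35 (SE, n = 2 per group, limma adjusted p = 0.945). Ftl1, a ferritin light chain, differed by -0.54 ± 0.36 and the cystine transporter subunit Slc3a2 by 0.53 ± 0.34, both with overlap. The Ftl1 probe set has an ID among those of chromosome 17 genes, while Ftl1 is on chromosome 7. In 25 glutathione transferase and metabolism genes, 6 were higher and 3 lower without overlap (36%, also near the 33.2% of all genes), around a median of -0.04. Glo1, the glutathione-dependent glyoxalase, read 7.09 and 7.61 in knockout, against 6.57 and 6.15 in wild type, apart by 0.99 ± 0.27. A second probe set gave 1.18, but its ID lies among those of chromosome 2 genes, while Glo1 is on chromosome 17. Mgst2, a microsomal glutathione transferase, differed by 0.98 ± 0.52 and Ggct, which breaks down gamma-glutamyl dipeptides, by -0.70 ± 1.04.

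For 20 other thiol and selenium enzymes, 1 was higher and 5 lower without overlap, and the median was -0.12. In either direction this was 30%, near the 33.2% of all genes, of which 14.5% were higher and 18.6% lower. Glrx2, the mitochondrial glutaredoxin, read 8.68 and 9.18 in knockout, against 9.34 and 9.64 in wild type, a difference of -0.56 ± 0.25 (SE, n = 2 per group). The methionine sulfoxide reductase gene Msrb2 and the iron-sulfur glutaredoxin gene Glrx3 overlapped, at 0.44 ± 0.34 and 0.33 ± 0.46. Of 10 genes of the superoxide-producing NADPH oxidases, 2 were higher and 3 lower without overlap (50%, against 33.2% of all genes), with a median of -0.03. Cyba, the membrane p22phox subunit, differed by 0.55 ± 0.24 and Ncf1, the cytosolic p47phox subunit, by 0.42 ± 0.16, while the regulatory subunit gene Ncf4 differed by -0.06 ± 0.18. Phagocytes express this oxidase, and the 10 granulocyte genes measured summed to 4378 and 2315 in knockout, against 3513 and 3018 in wild type. The 5 monocyte and macrophage genes summed to 515.7 and 523 in knockout, against 617.3 and 642.2 in wild type. Their part in these differences was not tested.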

How the data were processed

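Per the labels' protocols, RNA of the sorted cells was amplified (NuGen Ovation System) and biotin was the label. The values deposited by the authors are intensities, 1 for each probe set on each array. The tools listed in the submitters' processing notes are RMA and Affymetrix Expression Console. Versions, settings and genome build are not given in the sources used here. Intensities reached 17720.8 and were read as linear, so log2 was taken. Median intensity per array was 51.01 to 52.26, so nothing further was normalized. The number of arrays limits the precision, and detection calls were not used.

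Of 35554 probe sets, 6615 with IDs before the first annotated one were taken as controls and left out, which is an assumption, and 28939 were tested. The platform annotation of 2016 gave 21789 probe sets 1 symbol and 1621 several, and 5529 tested ones were not listed. Promoters and chromosomes come from RefSeq, GRCm38.p6. Limma 3.58.1 (R 4.3.3, lmFit and eBayes, two-sided, Benjamini-Hochberg over all probe sets) compared knockout with wild type, after a test on simulated data. By rule, every measured member is named, and of each other list the genes past the threshold and up to 3 with the largest differences among those above the median gene level. The text departs from this for cell type markers and sex-linked genes, of which it gives sums, counts or single genes. It also departs for Cul3, Akt1, Sgk1, Nox4, Nox1 and Duox1, added after their values were seen. Members and lists were chosen with earlier results of these data known. Alternatives were cyclic loess, quantile normalization, an offset of 32, a filter on dim probe sets at the 30th percentile, trend and robust variance, a replicate block, leaving out every array in turn, averaging a gene's probe sets, control probe sets kept and, added after the data were seen, X-linked members left out.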

Additional observations from a re-analysis of the deposited data

How the results depend on the processing

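No member passed the threshold in any of the 13 alternatives, and the lowest adjusted p of a member was 0.603. The count over all probe sets, 1 as reported, was 0 with the replicate block, trend and robust estimation, repeated quantile normalization, leading probe sets kept or the offset of 32, and 0 to 0 whichever array was left out, in fits that take the spread from the group still holding 2 arrays. Equal replicate numbers share only a number in the labels, and the deviations of equal-numbered arrays correlated at 0.0434 over probe sets. The block changed no call of a member. Genes without overlap numbered 9 as reported, and 20 to 23 when an array was left out and 1 array faces 2. With 1 array against 2 there is less room for overlap in any gene. Shares of all genes were not counted for the alternatives, so these counts and those that follow have no background beside them. Genes also 1.5-fold apart numbered 2 as reported, 1 with cyclic loess, 1 with the offset of 32, 1 with repeated quantile normalization, and 3 to 7 with an array left out. The median difference stayed within -0.00155 to 0.13 with an array left out and was 0.05 without X-linked members.

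Of 449 recomputed differences, 424 kept their sign and 25, in 19 genes, did not. Other than with an array left out, 1 gene changed sign, Gpx3, whose difference was -0.00433 as reported. It stood at 0.073 with cyclic loess and 0.075 with repeated quantile normalization. Why signs changed was not tested. With an array left out, the range was -0.18 to 0.021 for Cat, -1.18 to 0.21 for Gclm, -0.68 to 0.58 for Glrx, -0.33 to 0.43 for Gpx1, -0.18 to 0.17 for Gpx3, -0.38 to 0.092 for Gpx7, -0.083 to 0.21 for Gpx8, -0.19 to 0.40 for Gsr, -0.13 to 0.69 for Prdx1, -1.25 to 0.26 for Prdx2, -0.26 to 0.77 for Prdx4, -0.14 to 0.24 for Sesn2, -0.21 to 0.73 for Sesn3, -0.26 to 0.16 for Sod1, -0.071 to 0.23 for Sod3, -0.11 to 0.29 for Srxn1, -0.053 to 0.24 for Txn1, -0.62 to 0.21 for Txn2 and -0.80 to 0.53 for Txnip. Signal over background was not used, so no limit is given for the dim genes Sod3, Gpx3, Gpx8 and Nqo1.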
